A study of Mus musculus with 5 samples.

Results

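The Period genes Per1, Per2 and Per3 and the cryptochrome genes Cry1 and Cry2 encode the repressors of the circadian clock. These 5 genes were chosen by name from mm10 RefSeq, out of 21887 protein-coding genes on the assembled chromosomes. Every deposited peak inside their gene bodies or within 3000 bp outside them was taken. The peaks came from male mouse gonads (fetal testis) profiled by CUT&RUN, a method that cuts out the DNA around an antibody's target with a tethered nuclease. A CREB antibody was used at 3 embryonic ages in days (E13.5, E16.5, E18.5), and an H3K4 antibody on the oldest of these. The methylation state recognised by the H3K4 antibody is not named in the labels, and neither is a strain, genotype or treatment. Each antibody and stage had 1 library made from dissociated whole gonads, so no value has a replicate check, no test between stages is possible, and peaks cannot be assigned to a cell type. The IgG library of the series was not analysed here.

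In the mammalian clock, the activators CLOCK and BMAL1 bind E-box elements and switch on Period and cryptochrome genes, and the PER and CRY proteins enter the nucleus together and silence the activators. A second input reaches some of these genes directly: CREB, phosphorylated after a rise in cAMP, binds the cAMP response element (CRE) and can induce Period genes rapidly, a route by which light resets the clock of the brain. PAR bZIP factors act through another element, the D-box. Clock gene rhythms are known to be weak or absent in much of the testis.

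CREB peaks lay at Per1 and Cry2 at every stage, at Per2 and Cry1 in the later pair of stages (E16.5, E18.5), and at Per3 at no stage, whereas all 5 genes had an H3K4 peak. Of the 5 genes, 2 had a CREB peak in the E13.5 list, 4 in the E16.5 list and 4 in the E18.5 list, with a single peak per gene and list. Over all protein-coding genes, the same rule gave a peak to 4.82%, 18.3% and 15.6% in these CREB lists and to 63.1% in the H3K4 list. The pattern of Per1 and Cry2, with CREB at all 3 stages and H3K4, was shared by 4.61% of protein-coding genes. That of Per2 and Cry1, with H3K4 and with CREB in the later stages only, was shared by 8.73%. The Per3 pattern, H3K4 without CREB, was shared by 43.0%. With 5 genes these shares are descriptions, and the read depth behind each list is unknown, so a missing peak does not show that CREB was absent.

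**Figure D1:**
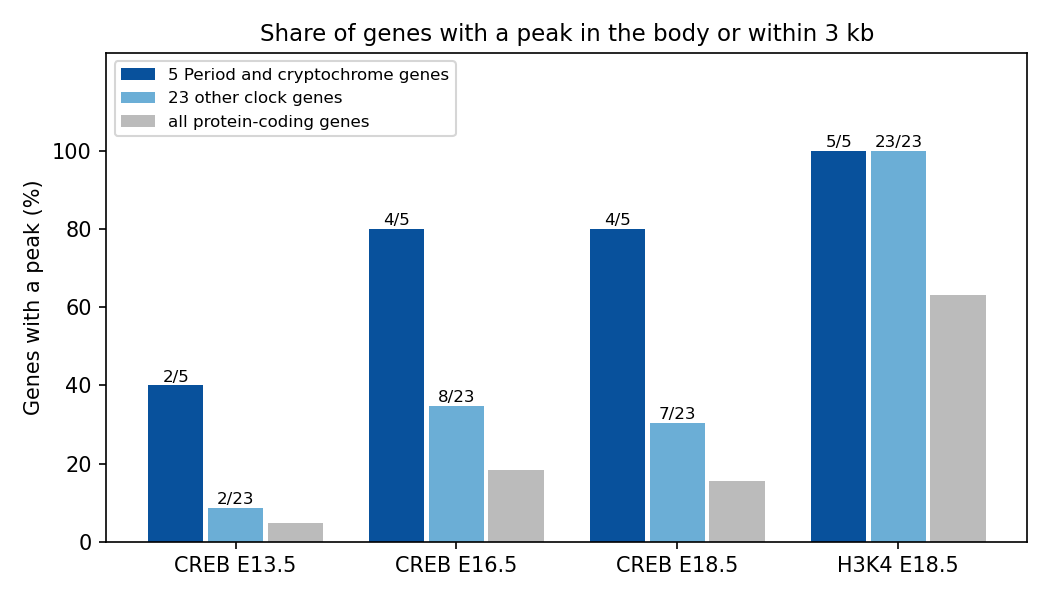
Share of genes (%) with at least 1 peak in the gene body or within 3 kb of it, by peak list, for the 5 Period and cryptochrome genes, 23 other clock genes and all protein-coding genes; bars are single values from 1 library each, with counts printed above. In the CREB lists the 5 genes reach 2, 4 and 4 of 5, beside 4.82%, 18.3% and 15.6% of all protein-coding genes.

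RefSeq promoter windows of build GRCm38.p6, which run from 250 bases before to 50 bases after an annotated start, are shown for the 4 members that have one: Per1 (with 2 windows), Per3, Cry1 and Cry2. Per2 is not in that table. They show what the CREB peaks do and do not cover. Letters run 5′ to 3′ on the transcribed strand, and capitals mark every match to 4 motifs searched on both strands: the full CRE TGACGTCA, the short CRE TGACG or CGTCA (each also the core of a full CRE), the E-box CACGTG, and the D-box TTATGTAA, its reverse complement TTACATAA, or TTACGTAA.
Cry2, chr2:92434020-92434319, minus strand: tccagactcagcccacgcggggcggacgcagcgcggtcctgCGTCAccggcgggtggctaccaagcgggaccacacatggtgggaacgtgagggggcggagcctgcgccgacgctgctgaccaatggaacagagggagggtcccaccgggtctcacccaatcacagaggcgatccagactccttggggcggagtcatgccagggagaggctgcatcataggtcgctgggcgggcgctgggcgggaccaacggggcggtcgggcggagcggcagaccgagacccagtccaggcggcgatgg
Cry1, chr10:85185005-85185304, minus strand: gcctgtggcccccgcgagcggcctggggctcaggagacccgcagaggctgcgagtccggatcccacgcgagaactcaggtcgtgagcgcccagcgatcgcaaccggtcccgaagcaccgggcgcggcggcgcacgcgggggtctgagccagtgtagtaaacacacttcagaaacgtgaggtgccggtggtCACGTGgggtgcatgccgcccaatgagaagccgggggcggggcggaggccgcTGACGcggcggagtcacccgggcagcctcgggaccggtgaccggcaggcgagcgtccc
Per3, chr4:151044616-151044915, minus strand: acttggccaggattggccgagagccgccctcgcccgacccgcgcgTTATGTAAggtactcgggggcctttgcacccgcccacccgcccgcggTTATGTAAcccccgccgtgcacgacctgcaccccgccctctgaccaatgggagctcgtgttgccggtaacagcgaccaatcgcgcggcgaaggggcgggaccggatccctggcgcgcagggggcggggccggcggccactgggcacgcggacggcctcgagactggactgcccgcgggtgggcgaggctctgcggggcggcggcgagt
Per1, first window, chr11:69098699-69098998, plus strand: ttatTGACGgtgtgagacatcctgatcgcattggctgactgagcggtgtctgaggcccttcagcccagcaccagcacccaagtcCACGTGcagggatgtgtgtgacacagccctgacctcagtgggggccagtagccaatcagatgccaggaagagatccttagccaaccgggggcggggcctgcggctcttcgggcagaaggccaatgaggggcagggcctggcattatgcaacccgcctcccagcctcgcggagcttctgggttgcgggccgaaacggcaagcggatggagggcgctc
Per1, second window, chr11:69099902-69100201, plus strand: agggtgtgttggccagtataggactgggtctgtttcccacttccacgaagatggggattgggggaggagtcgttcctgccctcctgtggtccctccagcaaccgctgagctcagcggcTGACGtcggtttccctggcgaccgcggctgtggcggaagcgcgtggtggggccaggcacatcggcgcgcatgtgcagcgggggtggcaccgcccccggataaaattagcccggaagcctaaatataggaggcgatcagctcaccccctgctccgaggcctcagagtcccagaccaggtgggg

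None of these 5 windows held a full CRE, which is in 1.79% of all 32851 promoter windows. A short CRE was present in 4 of the 5 (Cry1, Cry2 and both Per1 windows), and in 20.8% of all windows. Of the 5 windows, CREB peaks touched only those of Cry1 and Cry2. The sequence under the Per1 and Per2 CREB peaks was not searched, so these counts do not describe it. Among the 2569 windows touched by a CREB peak at E18.5, 62.2% held a short CRE and 10.3% a full CRE. The Per3 window was the member window without a short CRE; it held 2 D-boxes, a motif found in 1.06% of all windows and in 0.662% of those touched by CREB at E18.5. E-boxes were present at Cry1 and in the first Per1 window, against 7.15% of all windows. A match to these letters is not a measured binding site.

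Per1, the Period gene best known as an immediate target of cAMP and CREB, lies at chr11:69095108-69109965 on the plus strand. Its CREB peak was at chr11:69094893-69095042 in the E13.5 list, at chr11:69094651-69095280 in the E16.5 list and at chr11:69094967-69095126 in the E18.5 list. The midpoints lay 140.5, 142.5 and 61.5 bp outside the outer gene end, upstream of the farthest annotated start. The 3 peaks overlapped one another. The E13.5 peak ended outside the gene, while the E16.5 and E18.5 peaks reached 173 and 19 bp into it. The windows printed above belong to starts 3841 and 5044 bp further into the gene, and the CREB midpoints lay 3981.5, 3983.5 and 3902.5 bp upstream of the nearer of them. The short CREs and the E-box capitalised in the Per1 windows therefore lie at least 3423 bp from any CREB peak edge. The neighbour Vamp2, which encodes a vesicle fusion protein, ends 2270 bp or more from the CREB peaks.

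Cry2, which encodes a cryptochrome repressor, lies at chr2:92403646-92434085 on the minus strand. Its CREB peaks were at chr2:92434136-92434285 (E13.5), chr2:92433863-92434492 (E16.5) and chr2:92434100-92434259 (E18.5). Their midpoints stood just upstream of the gene, 125.5, 92.5 and 94.5 bp outside its end. The E16.5 peak reached 223 bp into the gene. All 150 bases of the E13.5 peak and all 160 of the E18.5 peak fall within the Cry2 window printed above, and the E16.5 peak covers the whole window. The short CRE of that window, at chr2:92434274-92434278 and 209 bases before the annotated start, was inside the E13.5 and E16.5 peaks. It was 15 bp outside the edge of the E18.5 peak.

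Cry1, the other cryptochrome repressor gene, lies at chr10:85131700-85185054 on the minus strand. It had no CREB peak at E13.5, where the nearest in the list was 214218 bp away, at Ric8b. The E16.5 peak was at chr10:85184999-85185628 and the E18.5 peak at chr10:85185166-85185325, with midpoints 259.5 and 191.5 bp upstream of the gene. The E16.5 peak, 630 bp wide, covered the whole Cry1 window, including the short CRE 8 bases and the E-box 60 bases before the start. The E18.5 peak, 160 bp wide, covered 139 bases of the window and stopped 52 bp short of the E-box and 104 bp short of the short CRE. Whether these letters fall in a peak thus depends on the width at which each list was written.

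Per2, the Period gene whose loss shortens or abolishes behavioural rhythms in mice, lies at chr1:91415977-91459351. The tables used give it no strand; its transcription is known to run from the end with the higher coordinate. The CREB peaks stood at that end, at chr1:91459076-91459705 (E16.5) and chr1:91459341-91459500 (E18.5). Their midpoints lay 39.5 and 69.5 bp outside the gene, the closest of the member peaks to a gene end at E16.5. No E13.5 peak was nearer than 721028 bp, in Hdac4.

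Per3, the Period gene with the mildest known mutant phenotype, lies at chr4:150997018-151044707 on the minus strand and was without CREB in all lists. The nearest CREB peaks lay 13308, 13031 and 13250 bp from it, from the youngest to the oldest stage. They mark the far side of the neighbouring Vamp3 (chr4:151047305-151057953), a vesicle fusion gene, where the E18.5 peak began 4 bp outside the gene and the E13.5 peak 62 bp outside. These Vamp3 peaks also lie inside the gene model Gm38529. CREB was thus listed at a near neighbour of Per3 at every stage. A peak at that neighbour does not show whether one at Per3 was missed.

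**Figure D2:**
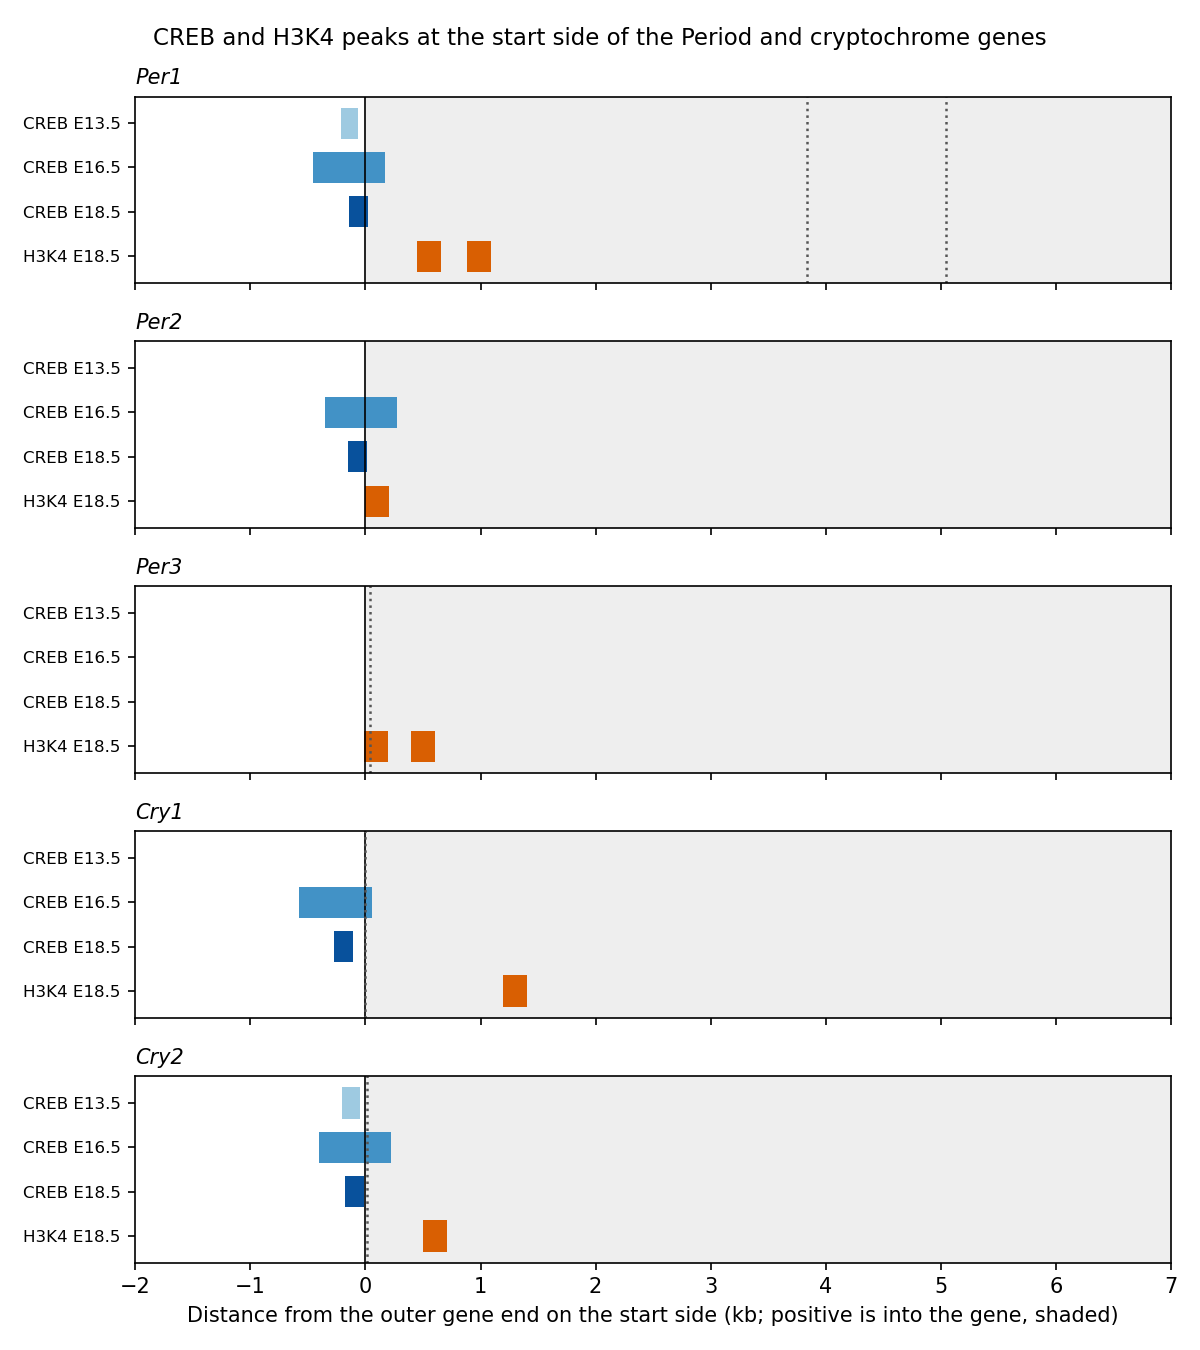
Peaks of the 4 lists drawn to scale around the start side of each gene. The x axis gives the distance in kb from the outer gene end (black line), positive into the gene (grey), bars span each peak and dotted lines mark starts of the RefSeq promoter windows; for Per2, without strand in the tables, the higher-coordinate end is used. CREB peaks stand across or outside the gene end, 39.5 to 259.5 bp away by midpoint, and the H3K4 midpoints inside the gene; 3 H3K4 peaks beyond the 3′ ends of Per1 and Per2 are off the axis.

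The CREB peaks of 1 gene lay in the same place from stage to stage. In all 8 pairs of stages in which a member had a peak at both, the peaks overlapped, by 76 to 160 bp. Such sharing was common over the whole lists, so it is not a trait of the members. Beside the 862 rows of the E13.5 list, shared positions numbered 789 with the E16.5 list and 779 with the E18.5 list. Between the later lists, of 3528 and 2957 rows, they numbered 2366. Midpoints differed by 2 bp at Per1 and 33 bp at Cry2 between E13.5 and E16.5. Between E13.5 and E18.5 they differed by 79 and 31 bp. Between E16.5 and E18.5 the differences were 81 bp at Per1, 30 bp at Per2, 68 bp at Cry1 and 2 bp at Cry2. Over all overlapping peaks of the lists the median difference was 40, 25 and 42 bp for these pairs of stages, with quartiles of 17 and 78, 10 and 53, and 16 and 82 bp. Of the 8 member differences, only the 79 bp at Per1 between E13.5 and E18.5 was above the upper quartile for its pair of stages. All 10 member CREB peaks had their midpoint outside the gene, on the start side. How often CREB peaks at other genes lie this way was not counted, so this is not shown to be particular to the members.

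The genes with a CREB peak at 3 stages also stood earlier in the lists. Per1 was in row 29 of 862 (E13.5), row 56 of 3528 (E16.5) and row 44 of 2957 (E18.5). Cry2 was in rows 620, 523 and 206 of the same lists, and so 71.9% of the way down the E13.5 list. Per2 was in rows 1773 and 2717 of the E16.5 list and the E18.5 list, and Cry1 in rows 2736 and 2019. Among other clock genes with CREB at 3 stages, the first peaks of Nr1d2 were in rows 308, 108 and 397. Those of Csnk1d were in rows 599, 231 and 1015. No source used here says what sets the row order, and the lists hold no scores. When the E16.5 and E18.5 lists were limited to their first 862 rows, the length of the E13.5 list, Per1 and Cry2 kept their peak at each stage and Per2 and Cry1 had none. The count was then 2 of 5 at every stage, beside 5.28% of protein-coding genes in the first E16.5 rows and 5.16% in the first E18.5 rows. Because the row order is unexplained, this cut need not mimic a shorter list. The E13.5 list is much shorter than the others and read depth is unknown. For that reason alone, the absence of Per2 and Cry1 at E13.5 cannot be told apart from the length of the list.

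**Figure D3:**
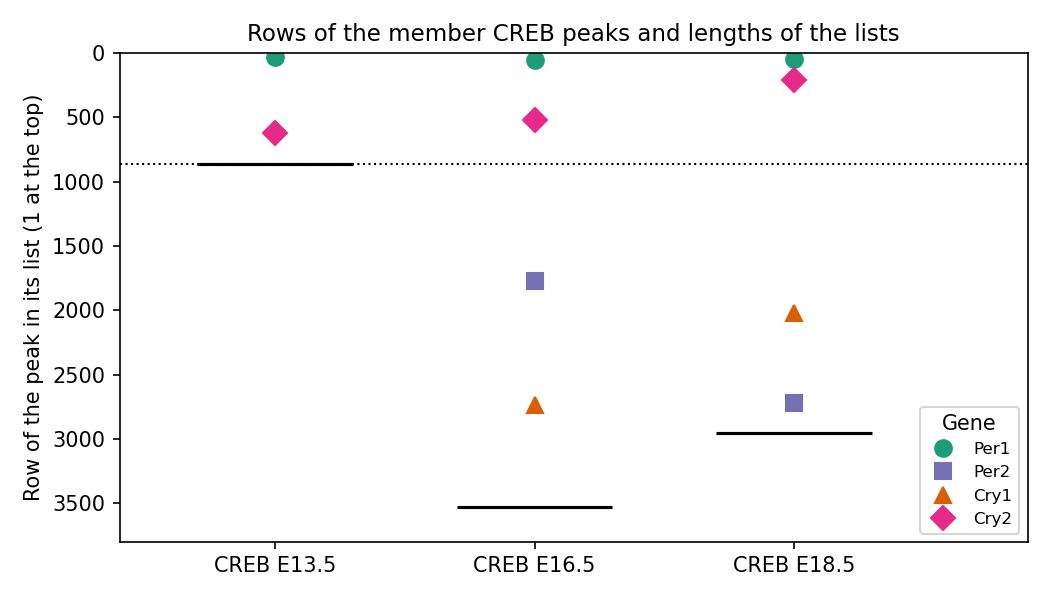
Row of each member CREB peak in its list (y axis, row 1 at the top), by stage; horizontal bars mark the last row of each list and the dotted line the length of the E13.5 list, 862 rows. Per1 and Cry2 stand above the dotted line at all 3 stages, Per2 and Cry1 below it in the longer lists, and Per3 has no CREB peak to plot.

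Some states of H3K4 methylation are known to mark the chromatin at and just downstream of active gene starts. The labels do not name the state recognised here, so these peaks cannot be read as marks of active starts. The H3K4 list held 10 peaks at the 5 genes: 4 at Per1, 2 each at Per2 and Per3, and 1 each at Cry1 and Cry2. Of the Per1 peaks, those at chr11:69095555-69095764 and chr11:69095990-69096199 stood 551.5 and 986.5 bp inside the outer gene end, next to the CREB peak. No H3K4 peak touched either of the Per1 windows printed above, and the nearest H3K4 midpoint lay 2854.5 bp upstream of the first of those starts. Peaks of both antibodies thus stood at the outer Per1 start, and no peak of any list stood at the inner ones. The other Per1 peaks lay 554 and 1129 bp beyond its 3′ end, overlapping the tRNA gene n-TTagt5 and 94 bp from n-TScga3. At Per2, an H3K4 peak at chr1:91459144-91459353 stood on the gene end, and another lay in the neighbouring gene Hes6, a bHLH factor gene, 2655 bp outside Per2. Per3 had peaks at chr4:151044508-151044717 and chr4:151044101-151044310, with midpoints 94.5 and 501.5 bp inside the gene, the first touching the window printed above. The Cry1 peak, at chr10:85183647-85183856, was 1302.5 bp inside the gene, and that of Cry2, at chr2:92433378-92433587, was 602.5 bp inside.

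Only at E18.5 were both antibodies used. At that stage the nearest H3K4 midpoint lay 172 bp from the CREB midpoint at Per2, 613 bp at Per1, 697 bp at Cry2 and 1494 bp at Cry1. In all 4 genes H3K4 was on the gene side of CREB. Only at Per2 did the peaks overlap, by 13 bp; over the list, 33.1% of the 2947 CREB peaks at E18.5 on the assembled chromosomes overlapped an H3K4 peak. The median distance over those peaks was 278 bp, with quartiles of 134 and 531 bp, so Per1, Cry2 and Cry1 lay beyond the upper quartile. Cry1 belonged to the 11.7% of CREB peaks without an H3K4 midpoint within 1000 bp. Among the 1565 CREB peaks at E18.5 near starts of a single strand and with H3K4 within 1000 bp, H3K4 was on the transcribed side in 64.0%. Of the 4 genes, only Cry2 meets that rule. Cry1 lay at 1494 bp, and Per1 and Per2 have no start of a promoter window within 1000 bp. The 64.0% is therefore not a like comparison for the 4 genes. Row order in the H3K4 list differed from that in CREB: the Cry1 peak was in row 213 of 21211, the Per1 peaks inside the gene in rows 1649 and 2243, the Cry2 peak in row 10108, the Per2 start peak in row 11160, and the Per3 peaks in rows 14669 and 16211.

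Among 23 other clock genes, 2, 8 and 7 had a CREB peak, from the youngest to the oldest stage, and 23 had an H3K4 peak, beside the shares of all protein-coding genes given above (4.82%, 18.3%, 15.6% and 63.1%). Of the 4 activator genes, Clock, Npas2 and Arntl2 had no CREB peak and Arntl, which encodes BMAL1, had 1 at E16.5 alone, 28774.5 bp from its nearer gene end. The closest of the 2 Arntl H3K4 peaks lay 28561.5 bp from a gene end. In the second loop of nuclear receptors, 1 of 4 genes had CREB: Nr1d2, which encodes the repressor REV-ERB beta, had 2, 1 and 2 peaks from the youngest to the oldest stage, the closest 150.5, 359.5 and 133.5 bp from a gene end by midpoint. Its relative Nr1d1 and the receptor genes Rora and Rorb had an H3K4 peak and no CREB peak. Among the PAR bZIP factors and their antagonist, Dbp, Tef and Hlf, whose proteins bind D-boxes, had CREB at both later stages, and Nfil3, the antagonist, had none. The Hlf peak of E16.5 lay 0.5 bp from a gene end, and the Dbp peaks 255.5 and 154.5 bp. Tef had 2 peaks at E16.5, the closest 135.5 bp from an end, and 1 at E18.5, 8637.5 bp from an end. Only the closest peak of each stage was measured, so these values do not show a shift between stages.

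Of 5 bHLH and other repressor genes, Bhlhe40, which encodes the repressor DEC1, had CREB at both later stages, 622.5 and 141.5 bp from a gene end, and Bhlhe41, Ciart, Cipc and Timeless had none. Of 6 genes for kinases and ubiquitin ligase parts that act on PER or CRY, Csnk1d, the casein kinase 1 delta gene whose product phosphorylates PER, had a peak at every stage, 40.5, 28.5 and 29.5 bp from a gene end. Csnk1e, for the related epsilon kinase, had 1 at E16.5 alone and Csnk1a1 at E18.5 alone. Fbxl21, Btrc and Fbxw11, which encode F-box proteins, the latter pair acting on PER, had none. By presence over the 4 lists, Nr1d2 and Csnk1d were the other clock genes with the pattern of Per1 and Cry2. Dbp, Tef, Hlf and Bhlhe40 had that of Per2 and Cry1, and 14 genes that of Per3.

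The labelled tissue could be checked only by H3K4 peaks, which are not expression. Of 10 fetal testis marker genes, 6 had an H3K4 peak in the body or within 3000 bp (Sox9, Amh, Dmrt1, Star, Cyp11a1 and Nr5a1), and so did all 4 ovary markers (Foxl2, Fst, Rspo1 and Wnt4), beside 63.1% of protein-coding genes. The H3K4 list thus did not separate the marker sets. The 5 genes lie among 862, 3528 and 2957 CREB peaks and 21211 H3K4 peaks, which are nearly all 150, 630, 160 and 210 bp wide, so the width of a peak says nothing about that peak.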

How the data were processed

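Peak lists of 4 of the 5 libraries were used; the title and other labels of the IgG library give different stages, and it was not analysed here. The files deposited by the authors hold chromosome, start and end in mm10, without score, fold or count. Trim Galore 0.6.10, Bowtie2 2.5.2 and MACS2 are the tools in the submitters' processing notes; for settings, control library and row order the sources used here give nothing. Genes came from RefSeq GRCm38.p6, which shares mm10 coordinates. A peak counted for a gene when at least 1 bp overlapped the body or 3000 bp outside it. Positions are 1-based and distances run from peak midpoints. With 1 library per group no test was made. Members and gene lists were chosen with earlier results of these data known. Named are the members, other clock genes with CREB at 2 or more stages or the same pattern as a member, and neighbours nearer to a peak; other genes of the lists were named after their values were seen. The planned protein comparison was not run, and 2 genes of the lists are not reported here. Overlap code was tested on simulated data, where all 200 planted genes were recovered in each list. Python 3.11.15, numpy 2.4.6, pandas 2.3.3 and matplotlib 3.10.9 were used.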

Additional observations from a re-analysis of the deposited data

How the results depend on the processing

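No paired analysis was possible because each group holds 1 library. A reach of 1000 or 10000 bp, the peak midpoint in place of overlap, and a common width of 150 bp left every count at the 5 genes within 1.5 times of the reported one, as did both reaches for the other clock genes and the rule of 1000 bp around a gene end for both sets. The 8 pairs of stages with a shared peak stayed at 8 with midpoints within 200 bp and with the common width. Counts moved further under other definitions. Within 1000 bp of a start in the promoter table, which lacks Per2 and the outer Per1 start, the members with a peak numbered 1, 2 and 2 in the CREB lists, from the youngest stage to the oldest, and 2 in the H3K4 list. The other clock genes, 19 of which are in that table, then numbered 1, 5 and 4 in the CREB lists. With the first 862 rows only, the members numbered 2 in the E16.5 list and 2 in the E18.5 list, and the other clock genes 2 and 1; the latter alternative was chosen after seeing the data. The median distance of the 10 member CREB peaks from the gene end was 110 bp by midpoint and 0 bp by the nearest base. CREB peaks at E18.5 beside H3K4 numbered 3 of 4 by midpoints within 1000 bp, 1 within 500 bp and 1 by overlap. Read depth is unknown, so neither missing peaks nor differences between stages can be given an error.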
